A study of Mus musculus with 10 samples.

Results

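The genes described here are 26 listed genes of cholesterol synthesis and of its control by sterol regulatory element-binding proteins (SREBPs), followed in mouse retina with and without oxygen-induced retinopathy (OIR). A listed gene counted as measured when a transcript cluster of the array, which is the set of probes for 1 transcribed region, was annotated to that gene alone. Of the 26 listed genes, 23 were measured, out of 30702 genes with such a cluster. Acat2 had no cluster in the table used here, Tm7sf2 shared its cluster with Vps51, and Srebf1 shared its cluster with the microRNA gene Mir6922, so none of these 3 has a value.

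RNA of whole retina from C57BL/6JJmsSlc mice was measured in 5 groups of 2 samples, with 1 Affymetrix whole-transcript array per sample, 10 in all. The ISOX DUAL group was OIR retina at postnatal day 17 after an injection of ISOX DUAL into the vitreous. The PBS group was OIR retina of the same day after an injection of phosphate-buffered saline (PBS). The uninjected OIR group had the oxygen exposure alone and was also taken at day 17. Untreated retina was taken at day 17 and at day 7. In the OIR model, pups aged 7 days breathed 75% oxygen over 5 days before they were returned to room air. Injections were given right at that return. ISOX DUAL is known as a bromodomain inhibitor. The sources used here give neither its dose nor its solvent. The study set out to find genes that OIR raised and ISOX DUAL brought back, so the comparisons below follow the groups through the model and its treatment. Whether both samples of a group are separate mice, eyes or pools is not stated in the labels. The p-values therefore reflect the spread between arrays only, and that spread may be technical.

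Cholesterol is made from acetyl-CoA through mevalonate, isoprenoid diphosphates, squalene and lanosterol. When sterols run low in the endoplasmic reticulum, the escort protein SCAP carries SREBP2 to the Golgi, where it is cut and freed to enter the nucleus and switch on most genes of the pathway. INSIG proteins hold SCAP back when sterols are plentiful. SREBP2 is known to act on promoters together with the factors NF-Y and Sp1, which bind CCAAT boxes and GC boxes. The retina makes much of its own cholesterol, and photoreceptor and glial membranes contain it.

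The tissue matched its label. All 6 rod photoreceptor markers exceeded the negative control median on every array, with a mean level of 11.4 to 11.8 at day 17, against 10.3 and 9.34 on the day 7 arrays. Levels are log2 values as the authors deposited them, and levels of different genes are not comparable. The median of the negative control probes was 5.83 to 6.11 on the 10 arrays, and 21 to 23 of the 23 genes exceeded it on each array. Idi1 lay below it on the first PBS array, and Ebp on the first PBS array and on the second day 7 array. The 95th percentile of the negative control probes, 8.31 to 8.64, was a stricter floor. It was exceeded on no array by 17 of the 23 genes and on at least 1 array by 6 (Hmgcs1, Scap, Sc5d, Srebf2, Lbr and Insig1), while 8.00% to 9.97% of all transcript clusters exceeded it. Msmo1, Stard4 and Fdps also came close to the negative control median, by as little as 0.02, 0.13 and 0.27 log2, so differences of these 5 genes may understate the true size. Differences were fitted with limma over all 10 arrays and 23756 genes, with a threshold of 0.05 on the adjusted p. The ± beside a difference is its standard error from that fit (n = 2 arrays per group), and ± beside a mean is the SD.

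Promoters were read for the CCAAT box, the GC box and the sterol regulatory element, each as an exact word. RefSeq promoter windows of GRCm38.p6, each spanning 250 bases before to 50 bases after a transcription start, were found for 19 of the 23 measured genes. Sqle, Fdps, Fdft1 and Stard4 had none. The NF-Y box CCAAT, read on both strands, occurred in 18 of these 19 genes, against 41.1% of all 27025 genes with a window. Scap was the gene without it. The GC box GGGCGG occurred in 17 of the 19, against 38.2% of all genes. The sterol regulatory element TCACNCCAC was found in Hmgcs1 alone, against 1.44% of all genes. Its shorter form CACNCCAC, contained in the longer one, was found in Hmgcs1 and Insig1, against 7.12% of all genes. The Hmgcs1 match is the longer form again, so the short form added Insig1 alone, and its share is near that of all genes. A match of letters is a description and not a measured binding site, and elements that depart from these letters are missed. Longer words match less often over all genes, so counts of different motifs are not set against each other. The windows of 4 genes that the results turn on are shown from 5′ to 3′ on the gene's strand, with NF-Y boxes and sterol regulatory elements of either length in capitals. Hmgcs1 lies at chr13:119690101-119690400 on the plus strand, Idi1 at chr13:8885356-8885655 on the plus strand, Insig1 at chr5:28071162-28071461 on the plus strand, and Sc5d at chr9:42264251-42264550 on the minus strand.
Hmgcs1: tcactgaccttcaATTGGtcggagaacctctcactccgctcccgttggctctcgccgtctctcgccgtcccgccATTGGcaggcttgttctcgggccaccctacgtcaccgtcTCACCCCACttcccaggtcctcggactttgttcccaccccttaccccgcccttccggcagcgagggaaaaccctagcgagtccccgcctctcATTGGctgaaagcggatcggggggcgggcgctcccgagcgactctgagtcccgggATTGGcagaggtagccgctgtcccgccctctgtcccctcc
Idi1: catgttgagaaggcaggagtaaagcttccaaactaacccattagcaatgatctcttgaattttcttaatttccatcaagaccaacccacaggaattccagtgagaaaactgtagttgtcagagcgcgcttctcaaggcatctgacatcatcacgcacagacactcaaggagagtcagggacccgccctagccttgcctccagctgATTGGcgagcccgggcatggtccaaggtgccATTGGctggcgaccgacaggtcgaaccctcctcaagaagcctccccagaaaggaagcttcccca
Insig1: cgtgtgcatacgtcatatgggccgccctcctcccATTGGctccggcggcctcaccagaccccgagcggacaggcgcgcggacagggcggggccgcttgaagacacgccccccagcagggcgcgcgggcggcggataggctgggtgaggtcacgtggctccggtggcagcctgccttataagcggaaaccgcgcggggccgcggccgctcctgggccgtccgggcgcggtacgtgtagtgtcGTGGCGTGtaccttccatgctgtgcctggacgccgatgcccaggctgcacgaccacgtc
Sc5d: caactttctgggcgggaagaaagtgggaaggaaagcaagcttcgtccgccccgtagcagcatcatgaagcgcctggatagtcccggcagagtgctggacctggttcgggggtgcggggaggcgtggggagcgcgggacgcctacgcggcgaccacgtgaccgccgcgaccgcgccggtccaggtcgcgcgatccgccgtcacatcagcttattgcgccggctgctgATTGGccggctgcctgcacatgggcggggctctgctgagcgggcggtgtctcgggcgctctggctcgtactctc

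The Hmgcs1 window holds 4 NF-Y boxes and the element TCACCCCAC, whose first base lies 137 bases before the start. The Idi1 window holds 2 NF-Y boxes, at 45 and 14 bases before the start. In the Insig1 window the short element lies 9 bases before the start, on the opposite strand, with an NF-Y box at 216 bases. Sc5d carries 1 NF-Y box, 24 bases before its start. Over all windows of these genes there were 41 NF-Y boxes. Of them, 35 lay within the 200 bases before the start, 3 lay after it, and 12 genes had at least 2. Those 200 bases make up most of each window. Positions and numbers of boxes were not counted over all genes, so these counts have no background beside them.

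**Figure D1:**
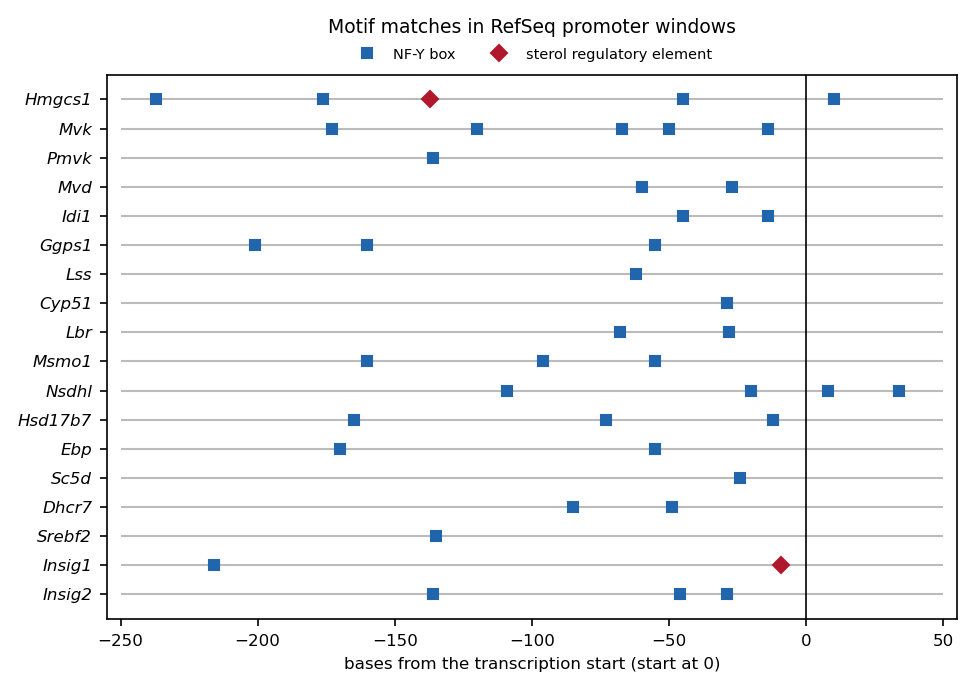
NF-Y boxes (squares) and sterol regulatory elements of either length (diamonds) along the RefSeq promoter windows of the 18 genes with a match; the x axis is the distance from the transcription start in bases. Most boxes lie in the 200 bases before the start, which make up most of the window, and positions were not counted over all genes. The 2 diamonds belong to Hmgcs1 (the long form) and Insig1 (the short form).

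The largest fitted difference among the 23 genes over the 7 comparisons was that of Idi1 between ISOX DUAL retina and untreated retina of day 17. Idi1, Fdft1, Fdps, Sqle and Hmgcs1 were lowest in ISOX DUAL retina and highest in untreated day 17 retina. None of these differences passed the threshold over all genes. Day 17 against day 7 gave 1 gene past it, Sc5d. Between ISOX DUAL and PBS no gene of the list passed it.

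Of the early enzymes, 3 are given in full. Hmgcs1, the synthase that makes HMG-CoA, measured 8.91 and 8.77 on the ISOX DUAL arrays, 8.56 and 9.28 on the PBS arrays, 9.27 and 9.02 in uninjected OIR, 9.67 and 9.30 in untreated day 17 retina, and 9.53 and 9.14 at day 7. Both ISOX DUAL arrays lay below both arrays of each uninjected group, whereas the PBS pair was spread widely. Idi1, which isomerises isopentenyl diphosphate, had 6.11 and 6.20 with ISOX DUAL, 6.08 and 6.54 with PBS, 6.80 and 6.46 in uninjected OIR, 7.51 and 6.87 in untreated day 17 retina, and 6.92 and 6.29 at day 7. All 4 injected arrays were below both untreated day 17 arrays, and the first of those untreated arrays was the highest of all 10. Fdps, which makes farnesyl diphosphate, had 6.56 and 6.60 with ISOX DUAL, 6.38 and 7.03 with PBS, 6.99 and 6.65 in uninjected OIR, 7.42 and 7.23 in untreated day 17 retina, and 7.37 and 6.69 at day 7. The ISOX DUAL arrays lay below every uninjected array and close to each other.

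The enzymes between farnesyl diphosphate and lanosterol did not move as one. Fdft1, the squalene synthase, measured 7.68 and 7.50 with ISOX DUAL, 7.46 and 7.85 with PBS, 8.16 and 7.82 in uninjected OIR, 8.51 and 8.14 in untreated day 17 retina, and 8.03 and 7.58 at day 7. Sqle, the squalene epoxidase, had 7.00 and 6.96 with ISOX DUAL, 6.76 and 7.24 with PBS, 7.32 and 7.17 in uninjected OIR, 7.40 and 7.35 in untreated day 17 retina, and 7.30 and 7.22 at day 7. In both genes the injected arrays lay under the untreated arrays of day 17, and in Sqle the 6 uninjected arrays stayed within 7.17 to 7.40. Lss, the lanosterol synthase, showed no such pattern, with 7.60 and 7.54 in ISOX DUAL retina, 7.59 and 7.71 in PBS retina, 7.42 and 7.56 in uninjected OIR, 7.19 and 7.61 in untreated day 17 retina, and 7.35 and 7.68 at day 7.

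Among the enzymes that turn lanosterol into cholesterol, Msmo1 and Nsdhl help to remove methyl groups from the sterol ring. Msmo1 had 6.40 and 6.41 with ISOX DUAL, 6.32 and 6.52 with PBS, 7.00 and 6.49 in uninjected OIR, 7.22 and 6.68 in untreated day 17 retina, and 6.72 and 6.07 at day 7. Nsdhl had 6.94 and 6.92 with ISOX DUAL, 6.86 and 7.13 with PBS, 7.64 and 6.99 in uninjected OIR, 7.89 and 7.36 in untreated day 17 retina, and 8.00 and 7.16 at day 7. In both genes the first array exceeded the second in every uninjected group, by 0.51 to 0.84 log2. Sc5d, a sterol desaturase, had 8.47 and 8.43 with ISOX DUAL, 8.35 and 8.46 with PBS, 8.56 and 8.50 in uninjected OIR, 8.66 and 8.58 in untreated day 17 retina, and 8.13 and 7.91 at day 7. Both day 7 arrays were below all 8 arrays of day 17. Hsd17b7, which works in the same step as Nsdhl, had 6.96 and 6.87 with ISOX DUAL, 6.90 and 7.09 with PBS, 7.00 and 7.03 in uninjected OIR, 7.19 and 7.12 in untreated day 17 retina, and 7.04 and 6.95 at day 7. Its whole span was small.

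Lbr, a sterol reductase that also anchors chromatin at the nuclear envelope, ran the other way. Its levels were 8.45 and 8.44 with ISOX DUAL, 8.37 and 8.33 with PBS, 8.23 and 8.37 in uninjected OIR, 8.00 and 8.36 in untreated day 17 retina, and 8.51 and 8.84 at day 7. Both day 7 arrays exceeded all day 17 arrays. Pmvk, the kinase that makes mevalonate diphosphate, had 7.78 and 7.80 with ISOX DUAL, 7.62 and 7.71 with PBS, 8.14 and 8.11 in uninjected OIR, 7.57 and 7.80 in untreated day 17 retina, and 7.58 and 7.41 at day 7. Its uninjected OIR pair stood above the 8 other arrays.

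Among the controllers of the pathway, Srebf2 and Insig1 varied widely between arrays of 1 group. Srebf2, which encodes SREBP2, had 8.15 and 7.76 with ISOX DUAL, 7.93 and 8.27 with PBS, 8.08 and 8.49 in uninjected OIR, 7.93 and 8.46 in untreated day 17 retina, and 8.16 and 8.77 at day 7. Insig1, itself a target of SREBP2, had 7.90 and 7.57 with ISOX DUAL, 7.78 and 8.27 with PBS, 7.73 and 7.97 in uninjected OIR, 8.01 and 8.39 in untreated day 17 retina, and 7.48 and 7.99 at day 7. In both genes the second array was the higher one in every group but ISOX DUAL. Insig2, the second retention protein, ranged from 7.20 at day 7 to 7.63 in uninjected OIR over the 10 arrays, and the escort gene Scap from 8.29 to 8.84, with its lowest value on the first untreated day 17 array. Stard4, which encodes a sterol transfer protein, ranged from 6.20 to 6.79.

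The other 6 genes had narrow ranges over the 10 arrays. Mvk, the mevalonate kinase, ranged from 6.89 to 7.33, and both day 7 arrays exceeded the 8 of day 17. Mvd, the decarboxylase that yields isopentenyl diphosphate, ranged from 6.74 to 7.05. Ggps1, which makes geranylgeranyl diphosphate, ranged from 7.88 to 8.43. In Mvd and Ggps1 no group lay apart from the other 4. Cyp51, which removes a methyl group from lanosterol, ranged from 7.74 to 8.24. Ebp, a sterol isomerase, ranged from 6.04 to 6.33, near the negative controls throughout. Dhcr7, which carries out the last reduction to cholesterol, ranged from 7.39 to 7.79, and its 4 injected arrays, at most 7.50, lay below both untreated day 17 arrays at 7.66 and 7.70.

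**Figure D2:**
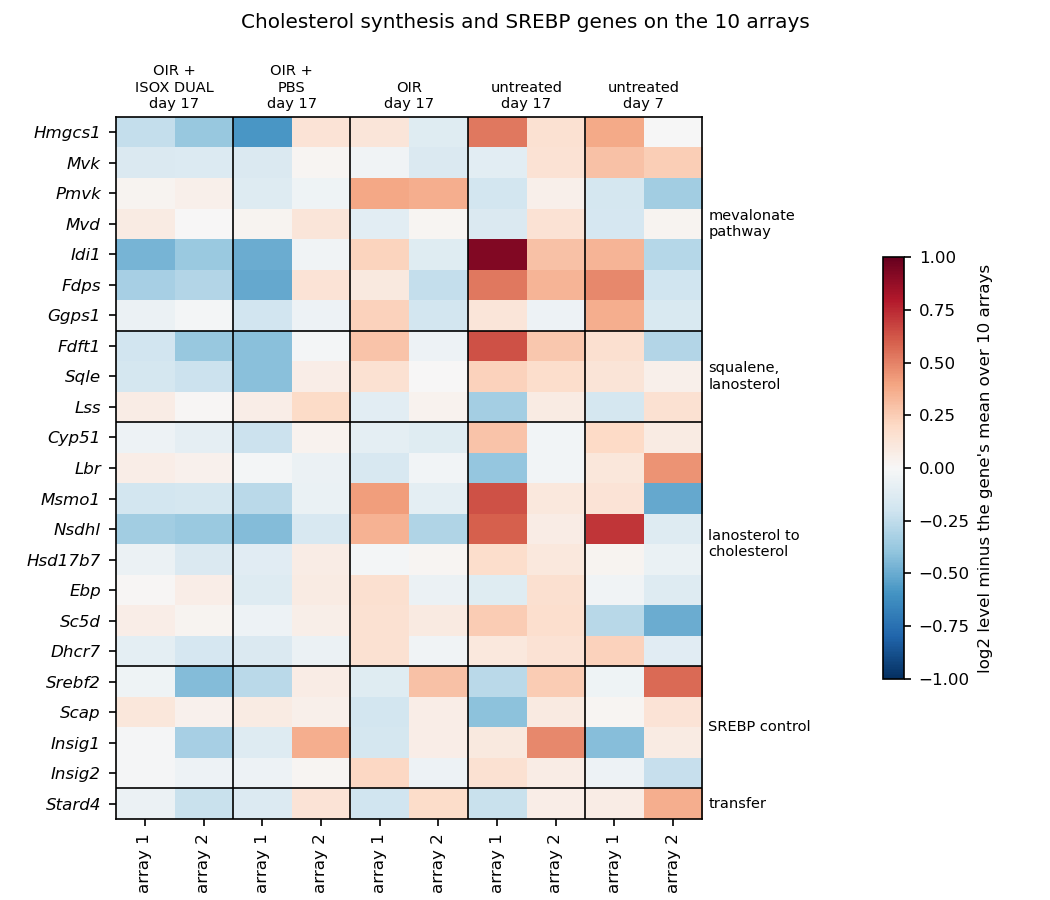
Heat map of the 23 measured genes (rows, grouped by role) on the 10 arrays (columns, by group); colour gives the log2 level minus the gene's mean over the 10 arrays. Idi1, Fdps, Fdft1, Msmo1 and Nsdhl are darkest red on the first untreated day 17 array or the first day 7 array, and blue on the ISOX DUAL arrays and the first PBS array.

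Retina of day 17 was compared with retina of day 7, both untreated, for the change with age. Sc5d rose (mean 8.62 ± 0.06 at day 17, against 8.02 ± 0.16 at day 7), by 0.60 ± 0.10 log2 or 1.52-fold, with an adjusted p of 0.0098 from limma. It was the 1 gene of 23 past the threshold, against 10.5% of all genes tested in either direction and 5.22% higher at day 17. Whether this is more RNA per cell or more of the cells that hold it cannot be told apart in whole retina, here or in the comparisons below. Lbr was 0.49 ± 0.15 log2 lower at day 17, with an adjusted p of 0.0870, and Fdft1 0.52 ± 0.22 higher, with an adjusted p of 0.207. Insig2 was 0.25 ± 0.11 higher, with an adjusted p of 0.239. The groups did not overlap for 9 of the 23 genes, 6 higher and 3 lower at day 17, or 39.1%, against 40.3% of all genes tested (20.7% higher and 19.6% lower). That share is near the background. The median difference of the 23 genes was 0.10 log2, against 0.01 for all genes tested. The call for Sc5d was lost without the first untreated day 17 array (adjusted p = 0.0503, limma), and with only the 4 arrays of both groups in the fit (adjusted p = 0.172, limma). Rod markers rose with age (5 of 6 past the threshold), and the proliferation marker Mki67 fell (log2 difference -4.32, adjusted p = 0.00031, limma). Their part in the Sc5d difference was not tested.

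Uninjected OIR retina was set against untreated retina of day 17 for the effect of the oxygen model. No gene of the list passed the limma threshold, against 0.484% of all genes tested, while 1 of 23 genes and 1440 of 23756 had an unadjusted p under 0.05. The 1 gene was Pmvk, 0.44 ± 0.11 log2 or 1.36-fold higher in OIR, with an adjusted p of 0.267. Idi1 was 0.56 ± 0.28 lower (adjusted p = 0.934), Fdps 0.50 ± 0.27 lower (adjusted p = 0.975) and Cyp51 0.24 ± 0.13 lower (adjusted p = 0.988). The groups did not overlap for 9 genes, 39.1%, against 28.5% of all genes. Of these, 8 were lower in OIR, 34.8%, against 19.1% of all genes, and Pmvk alone was higher, against 9.39% of all genes. The median of the 23 genes was -0.09 log2, against -0.04 for all genes tested. Negative differences numbered 16 of 23, against 14301 of 23756 over all genes tested. The first untreated day 17 array set the size of some of these: without it, Idi1 differed by -0.24 log2 and Cyp51 by -0.08.

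PBS retina was compared with uninjected OIR retina for the effect of the injection. No gene of the list passed the limma threshold, against 0% of all genes tested. Unadjusted, Pmvk alone had a p under 0.05, as did 1010 of all 23756 genes. Pmvk was 0.46 ± 0.11 log2 lower with PBS, with an adjusted p of 0.553. Fdft1 (-0.34 ± 0.22), Msmo1 (-0.33 ± 0.27) and Sqle (-0.25 ± 0.15) had an adjusted p of 0.967 each. The groups did not overlap for 5 genes, 2 higher and 3 lower with PBS, or 21.7%, against 36.1% of all genes (20.9% higher and 15.2% lower). The median of the 23 genes was -0.12 log2 and depended on the arrays. It was 0.03 without the first PBS array, which was lower than the second in 21 of the 23 genes, against 61.6% of all genes. Without that array Sqle differed by -0.01 log2.

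ISOX DUAL retina was compared with uninjected OIR retina, and again no gene of the list passed the limma threshold, against 0.00421% of all genes. An unadjusted p under 0.05 was found for 1 of 23 genes and for 1012 of 23756. The 1 gene was Pmvk, at 0.33 ± 0.11 log2 lower with ISOX DUAL (adjusted p = 0.988). Idi1 was 0.47 ± 0.28 lower, Fdft1 0.40 ± 0.22 lower and Sqle 0.27 ± 0.15 lower, each with an adjusted p of 0.989. Without overlap between groups, 11 genes were lower and 2 (Lbr and Cyp51) higher with ISOX DUAL. The lower ones made up 47.8% of the list, against 15.3% of all genes, and the higher ones 8.7%, against 25.8%. In either direction the share was 56.5%, against 41.1% of all genes. The 11 were Hmgcs1, Idi1, Fdps and Pmvk of the mevalonate steps, Fdft1 and Sqle of the squalene steps, and Msmo1, Nsdhl, Hsd17b7, Sc5d and Dhcr7 of the lanosterol steps. The median of the 23 genes was -0.11 log2, against 0.03 for all genes tested. Negative differences numbered 18 of 23, against 10050 of 23756 over all genes tested. Leaving out the first ISOX DUAL array gave -0.22, whereas leaving out the first uninjected OIR array gave a median smaller in size. The first uninjected OIR array exceeded the second by a median of 0.11 log2 over the 23 genes. This comparison and the preceding one share the uninjected OIR arrays.

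ISOX DUAL retina was then compared with PBS retina, the other injected group. Whether PBS was the solvent of the compound is not stated in the labels. No gene of the list passed the limma threshold and none had an unadjusted p under 0.05, against 0% of all genes past the threshold and 245 of 23756 unadjusted. Differences ran from -0.29 to 0.13 log2, with a median of -0.03. Insig1 was 0.29 ± 0.24 log2 lower with ISOX DUAL, with a 95% interval of -0.85 to 0.27, and Pmvk 0.13 ± 0.11 higher, with an interval of -0.12 to 0.38. Stard4 differed by -0.14 ± 0.18 and Hsd17b7 by -0.08 ± 0.10, and all 4 had an adjusted p of 1.00. For Idi1 the difference was -0.15 with an interval of -0.80 to 0.50, and for Sqle -0.02 with an interval of -0.37 to 0.33. Changes as large as these bounds are therefore not excluded by these arrays. The groups did not overlap for 2 genes, Pmvk and Lbr, both higher with ISOX DUAL, or 8.7%, against 28.1% of all genes in either direction and 16.7% higher. None was lower, against 11.4% of all genes. The median turned to 0.08 without the second PBS array and was -0.14 without the first.

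**Figure D3:**
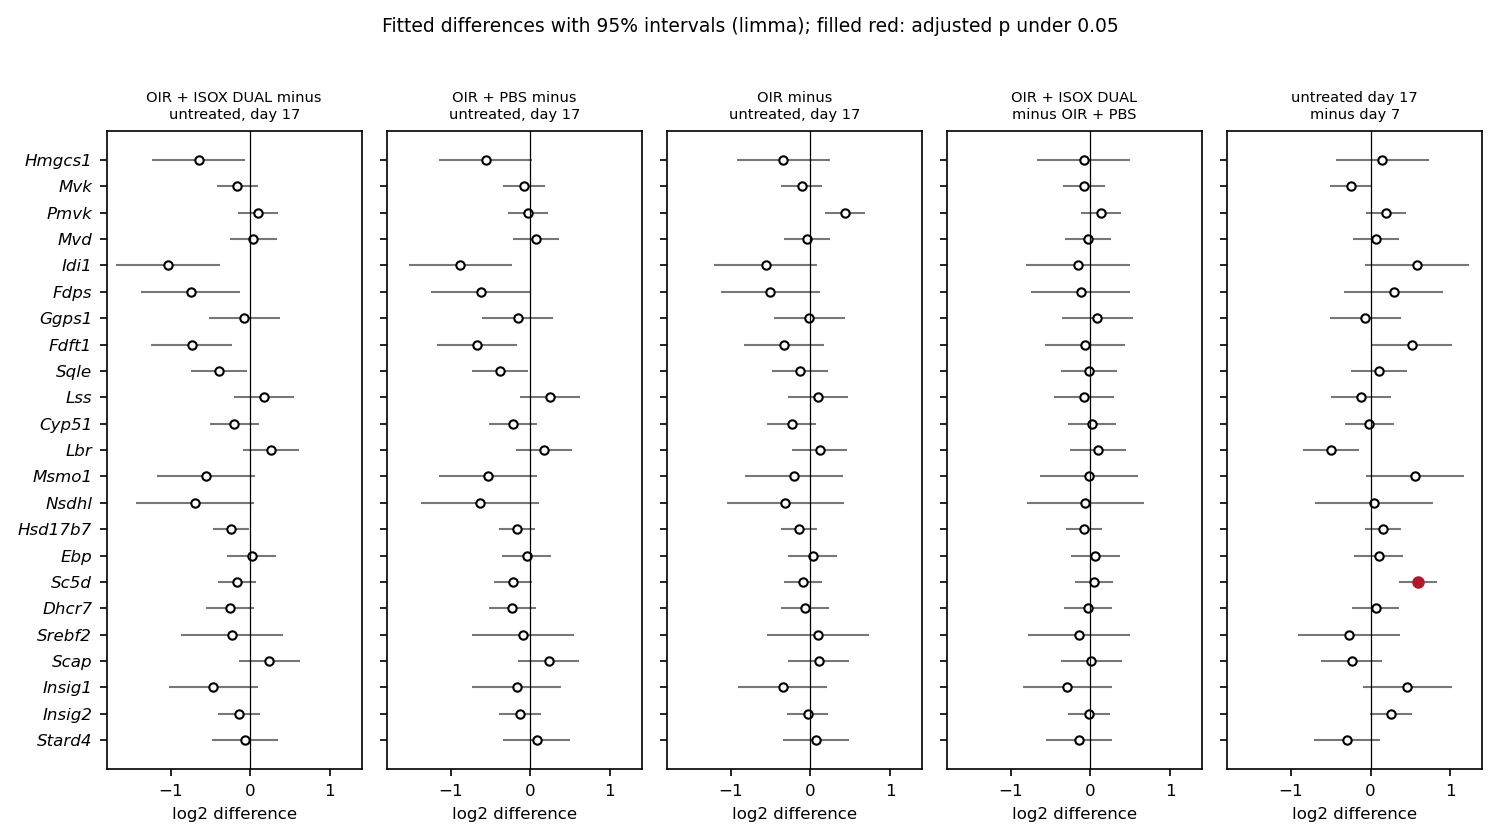
Fitted log2 differences of the 23 genes with 95% intervals from limma, 1 panel for each of 5 comparisons; the filled red point is the 1 gene with an adjusted p under 0.05, Sc5d at 0.60 between day 17 and day 7. In the ISOX DUAL and PBS panels against untreated retina, Idi1, Fdps, Fdft1 and Nsdhl lie between -0.62 and -1.03.

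Both injected groups were also set against untreated retina of day 17, which served both comparisons as the same 2 arrays, so a high or low untreated array enters each of them. In ISOX DUAL retina no gene passed the limma threshold, against 0.0168% of all genes tested, while 6 of 23 genes and 1998 of 23756 had an unadjusted p under 0.05. Idi1 averaged 6.16 ± 0.065 with ISOX DUAL and 7.19 ± 0.45 in untreated retina, a difference of -1.03 ± 0.28 log2 or 0.49-fold (adjusted p = 0.362). Fdft1 differed by -0.74 ± 0.22 (adjusted p = 0.408), Fdps by -0.75 ± 0.27 (adjusted p = 0.512) and Sqle by -0.39 ± 0.15 (adjusted p = 0.541). The other 2 with an unadjusted p under 0.05 were Hmgcs1 (-0.65 ± 0.25) and Hsd17b7 (-0.24 ± 0.10). Without overlap, 14 genes were lower with ISOX DUAL, 60.9%, against 27.4% of all genes, and 1 (Lbr) was higher, against 20.6%. In either direction 48% of all genes did not overlap. The median of the 23 genes was -0.20 log2, against -0.01 for all genes tested. Leaving out the second ISOX DUAL array, Idi1 differed by -1.08 log2, and leaving out the first untreated array by -0.71.

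In PBS retina, set against the same untreated arrays, no gene passed the limma threshold, against 0% of all genes tested, while 3 of 23 genes and 2161 of 23756 had an unadjusted p under 0.05. The 3 were Idi1 (-0.88 ± 0.28 log2, adjusted p = 0.542), Fdft1 (-0.67 ± 0.22, adjusted p = 0.542) and Sqle (-0.37 ± 0.15, adjusted p = 0.543). Fdps differed by -0.62 ± 0.27 (adjusted p = 0.546). Without overlap, 12 genes were lower with PBS, 52.2%, against 28.8% of all genes, and none was higher, against 19.7%. In either direction 48.4% of all genes did not overlap. The median of the 23 genes was -0.16 log2, against -0.03 for all genes tested. The second PBS array was closer to untreated retina: without the first PBS array Sqle differed by -0.13 and Fdps by -0.30.

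**Figure D4:**
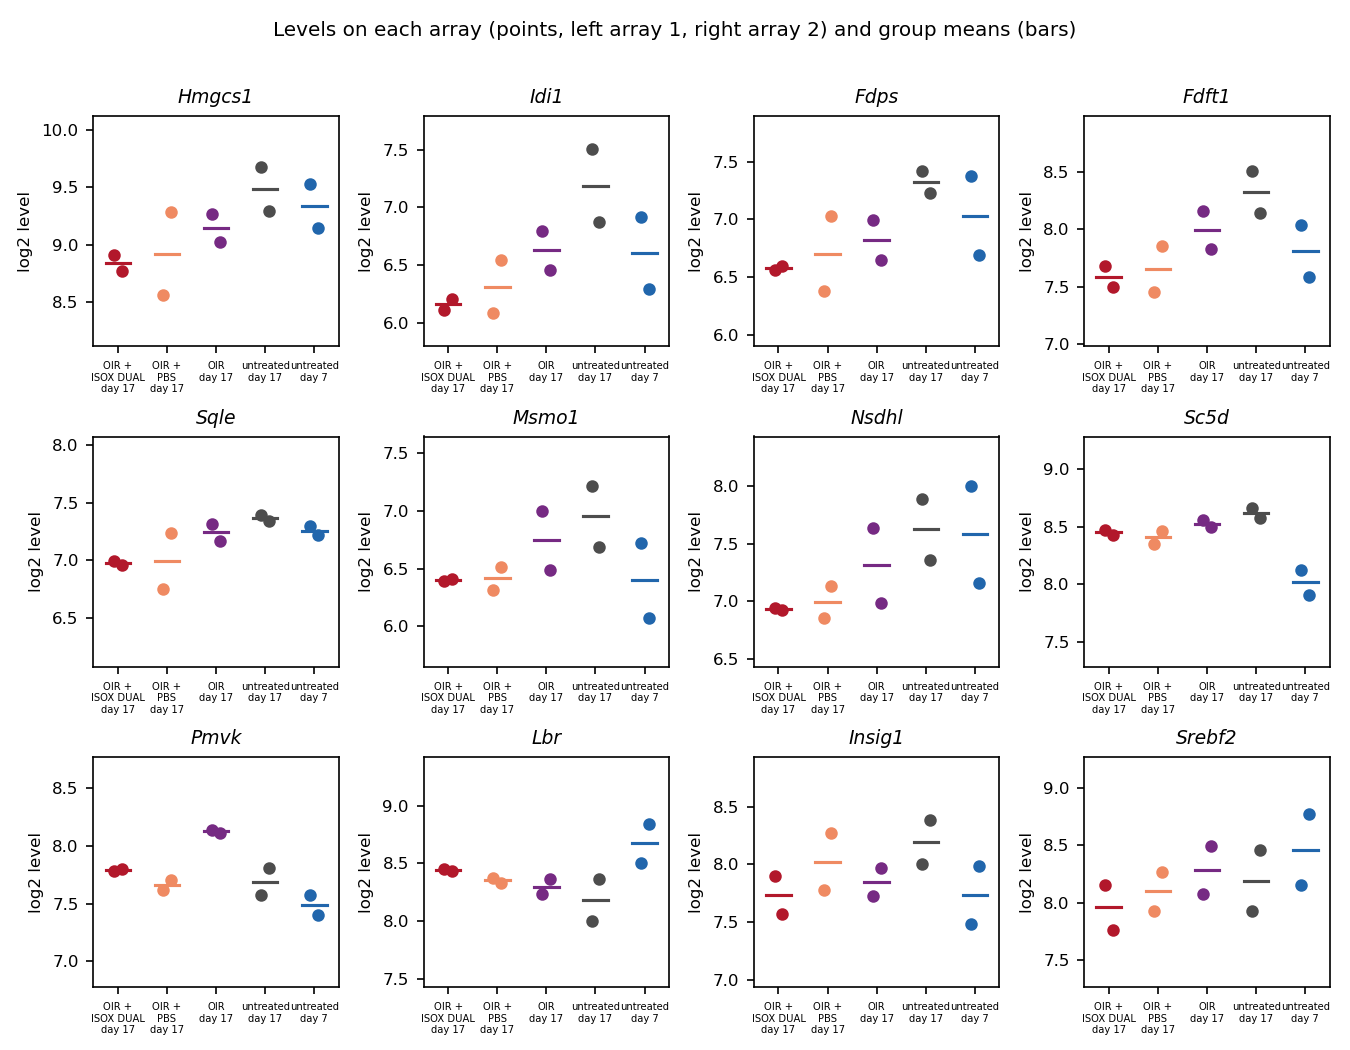
Log2 levels of 12 genes on each array (points, array 1 left and array 2 right) with group means (bars), groups from ISOX DUAL to untreated day 7; every panel spans the same number of log2 units. Hmgcs1, Idi1, Fdps, Fdft1 and Sqle step upward over the 4 day 17 groups from ISOX DUAL to untreated, Pmvk peaks in uninjected OIR, and Sc5d and Lbr separate at day 7.

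Across the 4 day 17 groups the means had the order ISOX DUAL, PBS, uninjected OIR and untreated, low to high, in 10 of the 23 genes, against 7.7% of all genes tested. The 10 were Hmgcs1, Idi1, Fdps, Fdft1, Sqle, Msmo1, Nsdhl, Hsd17b7, Dhcr7 and Insig2. Neighbours in this order did not differ past the threshold in any of the 10 genes. Untreated day 17 retina had the highest mean of the 5 groups in 12 genes, and ISOX DUAL the lowest in 11. Highest and lowest groups were not counted over all genes, so these counts have no background beside them. The order was not general to the pathway, since Lss, Scap and Lbr had their lowest mean in untreated day 17 retina.

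The 2 arrays of a group differed along the same genes in all uninjected groups. The first array was higher than the second in uninjected OIR, in untreated day 17 and in untreated day 7 retina in 11 of 23 genes, against 23.1% of all genes. These were Hmgcs1, Idi1, Fdps, Ggps1, Fdft1, Sqle, Cyp51, Msmo1, Nsdhl, Sc5d and Insig2. The second was higher in all 3 groups in 7 genes, against 35% of all genes, namely Srebf2, Scap, Insig1, Stard4, Lss, Mvd and Lbr. Except for Hsd17b7 and Dhcr7, the 10 genes with the ordered day 17 means were all among these 11. Lss, Scap and Lbr, lowest in untreated day 17 retina, were among the 7. The group order and the array differences thus fell largely on the same genes, and the part of the array differences in that order was not tested. The spread of the array differences over the 23 genes (SD) was 0.11 log2 in ISOX DUAL retina, 0.20 in PBS retina, 0.28 in uninjected OIR, 0.35 in untreated day 17 and 0.40 in untreated day 7 retina. The labels name no batch.

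Marker lists of several retinal cell types were also lower or higher in injected than in untreated retina, with Gfap alone past the threshold among those named here. The 5 measured of 6 ganglion cell markers (Rbpms, Pou4f1, Nefl, Sncg and Thy1) had a mean level of 7.65 and 7.23 on the ISOX DUAL arrays, 7.41 and 8.24 on the PBS arrays, 8.68 and 8.08 in uninjected OIR, 8.77 and 8.63 in untreated day 17 retina, and 8.52 and 7.87 at day 7. All 5 were lower in ISOX DUAL than in untreated day 17 retina, with a median of -1.23 log2, and lower in PBS than in untreated retina, with a median of -0.86. None passed the limma threshold, and 5 had an unadjusted p under 0.05 with ISOX DUAL and 1 with PBS. At least 4 of the 5 lay above the negative control median on every array. The 5 pigment epithelium markers averaged 6.35 and 6.94 with ISOX DUAL, 6.55 and 6.81 with PBS, 7.26 and 6.35 in uninjected OIR, 7.66 and 7.20 in untreated day 17 retina, and 6.45 and 5.92 at day 7. All 5 were lower than untreated day 17 retina with ISOX DUAL and with PBS, with medians of -0.69 for ISOX DUAL and -0.73 for PBS, and 2 had an unadjusted p under 0.05 in each. Only 3 or 4 of these 5 lay above the negative control median on an array, and Best1 lay below it on every array. The 5 amacrine cell markers averaged 8.96 and 8.88 with ISOX DUAL, 8.85 and 9.08 with PBS, 9.26 and 9.10 in uninjected OIR, 9.36 and 9.45 in untreated day 17 retina, and 9.33 and 9.04 at day 7. All 5 were lower in both injected groups than in untreated day 17 retina, with medians of -0.38 for ISOX DUAL and -0.49 for PBS, none past the threshold and 4 in each with an unadjusted p under 0.05. The 5 endothelial markers were all higher in both injected groups than in untreated day 17 retina, with medians of 0.25 for ISOX DUAL and 0.35 for PBS, and none passed. Of 5 microglia markers, 4 were higher and 1 lower in each injected group, with medians of 0.48 for ISOX DUAL and 0.28 for PBS. Of 3 measured markers of proliferating progenitors, 2 were higher and 1 lower, with medians of 0.75 and 0.79. None of these passed. Only 3 of the 5 microglia markers lay above the negative control median on each array. In untreated day 17 retina 1 of the 3 progenitor markers did. Gfap, which marks astrocytes and reactive glia, rose by 2.25 ± 0.18 log2 with ISOX DUAL against untreated retina (adjusted p = 0.0410, limma), rose by 2.39 ± 0.18 in uninjected OIR (adjusted p = 0.00528, limma), and differed by 1.71 ± 0.18 with PBS (adjusted p = 0.116, limma). The 2 other astrocyte markers listed, Pax2 and S100b, lay near or below the negative control median. Both were lower with ISOX DUAL and in uninjected OIR, and higher with PBS. Of the 5 Müller glia markers measured, 3 were lower and 2 higher in each injected group than in untreated day 17 retina. Medians were -0.23 for ISOX DUAL and -0.25 for PBS. In uninjected OIR 4 were lower and 1 higher, with a median of -0.44. Lens markers averaged 8.29 on the second ISOX DUAL array and 5.75 to 6.40 on the other 9. Myelin markers, which mark cells rich in cholesterol synthesis, averaged 5.52 to 5.76, below the negative control median of each array, with 2 of 5 above it. The part of the ganglion cell, pigment epithelium, amacrine, endothelial, microglia, progenitor, glial and lens markers in the differences of the cholesterol genes was not tested.

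**Figure D5:**
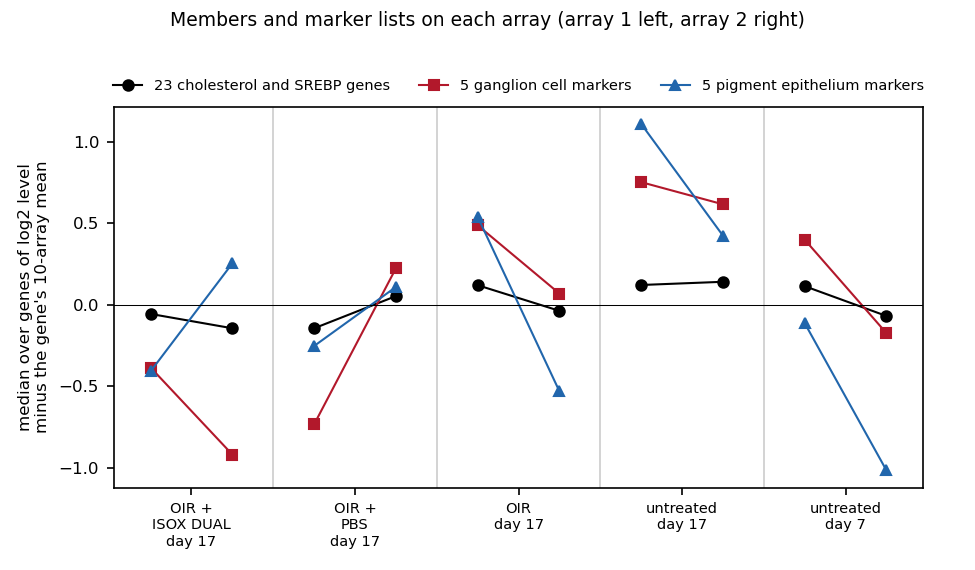
Median over genes of the log2 level minus the gene's 10-array mean, for the 23 cholesterol and SREBP genes (circles), 5 ganglion cell markers (squares) and 5 pigment epithelium markers (triangles); each group has array 1 left and array 2 right. The circles run from -0.14 on the second ISOX DUAL and first PBS arrays to 0.14 on the second untreated day 17 array, and the squares lie lowest, at -0.92 and -0.73, on the same injected arrays.

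Neighbouring lipid pathways were read from lists chosen by function. Among 13 measured of 14 genes of fatty acid synthesis, 3 rose between day 7 and day 17, and 0 passed the limma threshold in the other 6 comparisons. Over all 23756 genes tested, 1240 were higher and 1247 lower at day 17 past that threshold. Elovl6, which lengthens fatty acids, rose 1.83-fold (0.87 ± 0.21 log2, adjusted p = 0.0365), and Pnpla3 rose 1.76-fold (0.82 ± 0.18, adjusted p = 0.0298). Thrsp rose by 1.11 ± 0.20 log2 (adjusted p = 0.0130) and has no fold, since both day 7 arrays lay below the negative control median. Of 8 measured of 10 genes of cholesterol efflux and its nuclear receptor LXR, 2 were lower at day 17 and 0 passed elsewhere. Abca1, the transporter that exports cholesterol, fell by 1.45 ± 0.30 log2 (adjusted p = 0.0208), and Lpcat3 fell by 0.50 ± 0.10 (adjusted p = 0.0184). At day 17 Abca1 had 9.07 and 9.02 with ISOX DUAL, 9.08 and 8.47 with PBS, 8.09 and 8.13 in uninjected OIR, and 7.24 and 8.00 in untreated retina. Its injected arrays thus lay above the uninjected ones, with 1.43 ± 0.30 log2 for ISOX DUAL against untreated retina and an adjusted p of 0.271 by limma.

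Paqr3, which helps to anchor SCAP and SREBP at the Golgi, was the 1 gene past the threshold among 7 measured of 9 genes of SREBP cleavage and turnover. It fell by 0.91 ± 0.08 log2 at day 17 relative to day 7 (adjusted p = 0.000795, limma). Of 13 measured of 14 genes of sterol storage and transport inside cells, Gramd1b, a sterol carrier between membranes, rose 2.20-fold at day 17 (1.14 ± 0.11 log2, adjusted p = 0.0011, limma). None of the 10 measured of 12 isoprenoid and prenylation genes passed in any comparison, nor did the 3 measured of 8 further genes of sterol synthesis and uptake. Between day 17 and day 7, an unadjusted p under 0.05 was found for 4 of 10 isoprenoid genes and 0 of 3 further sterol genes. It was found for 10 of 13 fatty acid genes and 4 of 8 efflux genes. Among the SREBP cleavage genes there were 3 of 7, and among the storage and transport genes 3 of 13. Over all genes there were 5383 of 23756.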

How the data were processed

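Total RNA of 10 retina samples was extracted with Trizol, fragmented and biotinylated with a WT Terminal Labeling Kit, per the labels' protocols. In the deposited table each transcript cluster has a log2 value on every array, between 0.78 and 13.67, from which the scale was inferred. No source used here states the software, background correction or normalization behind it, and the values were analysed unchanged. Precision is limited by the number of arrays, with a median standard error of 0.163 log2 for differences of the 23 genes.

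Of 65956 transcript clusters left after 6732 control rows, 31258 had 1 gene symbol, 1492 several and 33206 none. Symbols were updated through the Entrez identifier (23422), the symbol or a synonym (7834), with the GRCm38.p6 RefSeq gene table, and 2 stayed as given. A gene took its single-symbol cluster of highest mean and was tested if at least 2 arrays exceeded their 30th percentile, which left 23756 genes and all 23 measured members. Differences were fitted with limma 3.58.1 (R 4.3.3, lmFit and eBayes, group means, all 10 arrays, 5 residual and 2.78 prior degrees of freedom), with Benjamini-Hochberg adjustment over all genes tested. The scripts were tested on simulated data. Full statistics are given for genes past the threshold, otherwise for up to 4 of smallest p in a comparison. A gene below the negative control median on both arrays of its lower group has no fold. The members, lists and tests were chosen with earlier results of these data known. Alternatives covered normalization, filters, the arrays in the fit, array weights, cluster choice, the variance trend and a replicate block.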

Additional observations from a re-analysis of the deposited data

How the results depend on the processing

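Under quantile normalization, no or a stricter filter, array weights, cluster means, a variance trend and protein-coding genes alone, each comparison kept its number of genes past the threshold (1 for day 17 against day 7, 0 for the other 6). With only the arrays of both groups, the count for day 17 against day 7 was 0. Leaving out 1 array at a time, it ranged from 0 (without the first untreated day 17 array) to 2 (without the second, when Lbr joined at -0.67 log2, adjusted p = 0.0437, limma), and the other 6 counts stayed at 0. Medians of the 23 genes then ranged from 0.045 to 0.21 log2 for day 17 against day 7, from -0.18 to 0.033 for PBS against uninjected OIR, and from -0.14 to 0.075 for ISOX DUAL against PBS. In the last comparison Hsd17b7 ranged from -0.17 without the first PBS array to 0.016 without the second. The other medians kept their sign. A lone array of a group was assumed to vary like the other groups.

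The groups share replicate numbers, which no label ties to a shared animal, litter or batch. Array differences correlated over all genes at 0.582 to 0.808 among uninjected groups and 0.395 between the injected groups. Between an injected and an uninjected group the correlation was -0.0551 to -0.402, so the numbers did not pair the arrays over all 5 groups. Over the measured listed genes alone it was 0.831 to 0.935 among uninjected groups and -0.242 between the injected groups. Between an injected and an uninjected group it was -0.231 to -0.612 over these genes. With a replicate block Sc5d stayed the 1 gene past the threshold and the other 6 counts stayed at 0, while calls over all genes numbered 2919 for day 17 against day 7 and 133 for OIR against untreated. Another block crossed the numbers of the injected groups, an alternative chosen after seeing the data. Its counts were 4 of the measured listed genes for day 17 against day 7 (Idi1, Lbr, Msmo1 and Sc5d) and 1 for ISOX DUAL against untreated (Idi1). With this crossed block, calls over all genes rose to 3586 of 23756 (15.1%) for day 17 against day 7. For ISOX DUAL against untreated they numbered 53 of 23756 (0.223%). Crossing both injected groups alike matches their positive correlation over all genes (0.395), but not the negative one over the listed genes (-0.242). Genes called over the whole table were 2487 for day 17 against day 7, and 348 with only those arrays, 1123 with array weights and 1512 without the second day 7 array. For OIR against untreated they were 115, and 0 with only those arrays, 12 with array weights and 0 to 83 with 1 array left out. For ISOX DUAL against untreated they were 4, and 0 to 53 over the alternatives. For ISOX DUAL against OIR they were 1, and 0 to 7. For PBS against OIR and against untreated they were 0, and up to 5 and up to 43, and for ISOX DUAL against PBS 0, and up to 1. Protein-coding genes alone were also added after seeing the data. With 2 arrays per group and several genes near the negative controls, small differences were not detectable.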
